A study of Mus musculus with 8 samples.

Results

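The BCL2 family decides whether a cell survives or enters apoptosis through its mitochondria, and 10 of its genes were followed here. They were Bcl2, Bcl2l1, Bcl2l2 and Mcl1, which encode survival proteins, and Bax, Bak1, Bid, Bcl2l11, Bbc3 and Pmaip1, which encode proteins that promote death. The genes were named from the family, with earlier results of these data known. A probe set counted as a gene's own where the platform annotation gives it exactly 1 symbol. This rule found 31 probe sets for 9 of the 10 genes, among 18193 genes measured in all. Bax was not analysed here, because no probe set carries its symbol alone. Every probe set of a gene is plotted and counted, though not all have values in the text. The one with the highest mean over the 8 arrays stands for the gene.

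The cells were of the T29 line, which comes from a thymic lymphoma of the mouse and, per the series text, lacks Ikaros, the lymphoid zinc finger transcription factor encoded by Ikzf1. The 4 groups of 2 arrays each were cells carrying MigR1-Ik1ER in 100 nM 4-hydroxytamoxifen (4OHT), the same cells in ethanol, cells carrying MigR1 in 100 nM 4OHT, and MigR1 cells in ethanol, all for 24 h. MigR1 is a retroviral vector that all cells carried, Ik1ER is an inducible form of Ikaros that only the first line carried, and ethanol is the solvent of 4OHT. The series asked which genes respond to Ikaros. Both lines derive from 1 tumour line, the labels do not say whether they are clones or pools, and they leave unsaid whether replicate arrays had cultures of their own. The p-values therefore measure the spread between these arrays, which may be technical.

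In BCL2 family biology, the survival proteins hold death-promoting relatives in check at the mitochondrial outer membrane. BAX and BAK, when released, open pores in that membrane, cytochrome c leaves the mitochondria, and caspases are activated. The BH3-only proteins, among them BIM (Bcl2l11), BID, PUMA (Bbc3) and NOXA (Pmaip1), start this by binding the survival proteins or the pore formers. In thymocytes BIM is required for the death of self-reactive cells, and MCL1 and BCL-XL (Bcl2l1) keep immature cells alive.

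All values are log2 expression values on the authors' scale, and the number of arrays limits their precision. Array medians lay between 5.36 and 5.43. The 27 control probe sets for Bacillus genes, which mouse RNA should not light, had means with a median of 3.33, the highest being 5.27, and served as a gauge of background. The Ikzf1 probe set 1421303_at read 11.27 and 10.45 in Ik1ER cells with 4OHT, 11.17 and 10.60 in Ik1ER cells with ethanol, 8.16 and 8.51 in MigR1 cells with 4OHT, and 8.12 and 8.14 in MigR1 cells with ethanol. The other Ikzf1 probe set lay between 9.97 and 10.44 on all arrays. Both thus read above the highest Bacillus mean in MigR1 cells too, so Ikzf1 signal was present in the line said to lack Ikaros. What it means for Ikaros protein was not tested. Of the T lineage markers measured, 7 of 7 lay above the highest Bacillus mean, with means of 10.62 to 13.42. Above that mark were also 1 of 4 B cell markers, 3 of 6 myeloid, 2 of 3 erythroid and 1 of 5 stromal markers (Pdgfrb, 9.06). In the Ik1ER line both replicate 2 arrays stood apart. Their 3' minus 5' difference for the transferrin receptor control, a gauge of RNA integrity, was 1.91 with 4OHT and 1.66 with ethanol, whereas the other 6 arrays lay between 1.15 and 1.39.

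The question put to the family was which members changed when 4OHT was given to Ik1ER cells, and whether the same held in MigR1 cells. Bcl2l2, which encodes the survival protein BCL-W, fell to a mean of 7.29 ± 0.13 in Ik1ER cells with 4OHT, against 8.17 ± 0.17 in Ik1ER cells with ethanol (SD, n = 2 each), a level 1.83-fold lower. No other member passed the test in these cells. Called genes are those with an adjusted p under 0.05, after Benjamini-Hochberg adjustment over 18193 genes of limma's test fitted to all 8 arrays. By this rule 0 of 9 measured members were higher and 1 was lower, against 2.80% of all genes called higher and 2.53% called lower (5.34% in either direction). The median log2 difference was 0.20 over the 9 members and -0.00 over all genes. Without adjustment 6 of the 9 had p under 0.05, as did 17.8% of all genes. The shares over all genes include genes at background, whereas 8 of the 9 members lay above the highest Bacillus mean. The 4OHT and ethanol arrays of Ik1ER cells did not overlap for 6 of 9 members, 4 above and 2 below, and for 42.7% of all genes.

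**Figure D1:**
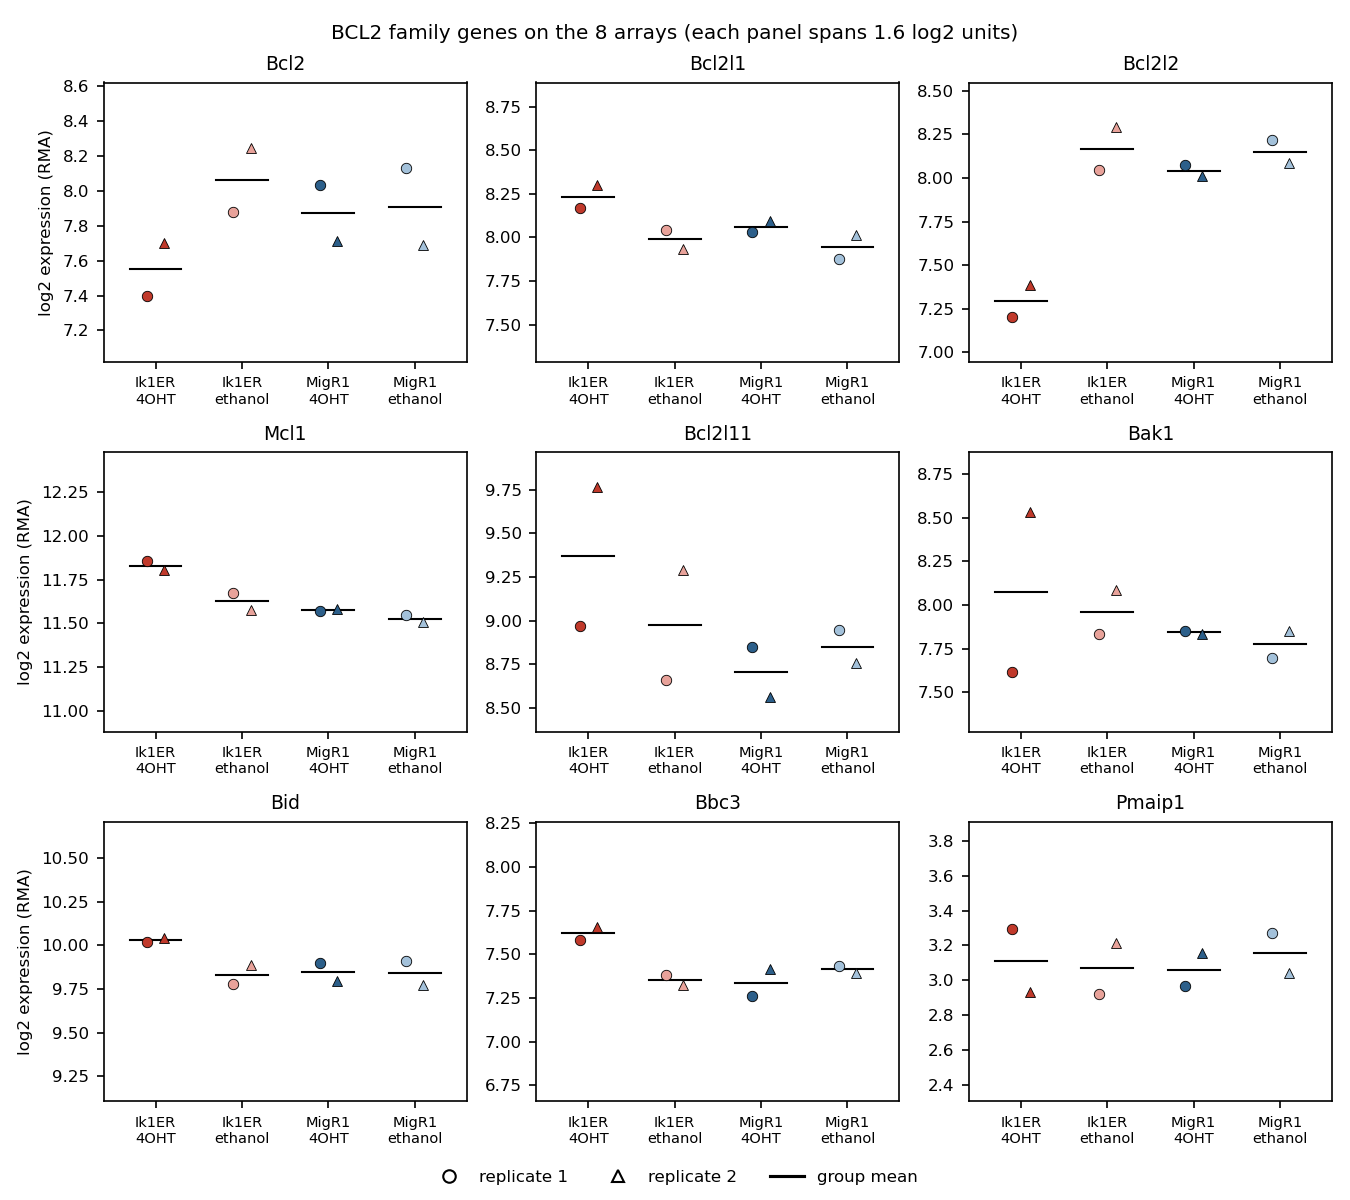
Log2 expression of the 9 measured members on each of the 8 arrays, 1 panel per gene. Groups run from Ik1ER with 4OHT on the left to MigR1 with ethanol on the right; circles are replicate 1, triangles replicate 2 and bars the group means, and every vertical axis covers the same span. Bcl2l2 lies at 7.20 and 7.38 in Ik1ER cells with 4OHT and between 8.01 and 8.29 on the other 6 arrays, while Pmaip1 lies between 2.92 and 3.30 in every group.

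Because Bcl2l2 was the member that changed, the DNA in front of it is shown. The sequence is that of RefSeq at chr14:54883175-54883365, plus strand, build GRCm38.p6, and holds the 191 bases of the gene's promoter window that precede its annotated start. The capitals mark a match to TGGGAA, a core motif bound by Ikaros, which lies here on the other strand, so that the printed strand reads TTCCCA, 66 bases before the start.
Bcl2l2 promoter: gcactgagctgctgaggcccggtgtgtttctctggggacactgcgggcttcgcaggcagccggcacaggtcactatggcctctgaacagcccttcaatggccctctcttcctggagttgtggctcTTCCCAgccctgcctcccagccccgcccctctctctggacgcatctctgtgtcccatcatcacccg
This motif is short and common. Searched on both strands, it was present in 7094 of 32851 promoter windows of 250 bases (21.6%). Among the members it was present in 2 of 14 windows (14.3%), those of Bcl2l2 and Bax, with windows for 9 of the 10 members. A window can reach into the annotated gene, and that of Bcl2l2 ends at 54883424, past the gene start at 54883366. A match of letters is a description and does not show binding.

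Bcl2l2 read 7.20 and 7.38 in Ik1ER cells with 4OHT and 8.04 and 8.29 in Ik1ER cells with ethanol. It read 8.07 and 8.01 in MigR1 cells with 4OHT, and 8.21 and 8.08 in MigR1 cells with ethanol. Both arrays of Ik1ER cells with 4OHT thus lay below all 6 others, which spanned 8.01 to 8.29. The log2 difference between 4OHT and ethanol in Ik1ER cells was -0.88 ± 0.11 (standard error; 95% interval -1.12 to -0.63; limma adjusted p = 0.00388). With both replicate 2 arrays of the Ik1ER line left out, a setting added after the data were seen, it was -0.84. Only replicate 1 then remains in each Ik1ER group. That pair cannot show how far the arrays that stood apart contributed, which was not tested. In RNA from whole cultures, fewer cells with a transcript and less transcript per cell cannot be told apart.

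In MigR1 cells the log2 difference of Bcl2l2 between 4OHT and ethanol was -0.11 (95% interval -0.36 to 0.14; limma adjusted p = 1.00), so that a fall of the size seen in Ik1ER cells lies outside this interval. The difference between the 4OHT effects of the 2 lines was -0.77 ± 0.15 (standard error; 95% interval -1.12 to -0.42). It did not pass the threshold (limma adjusted p = 0.0642), and it passed in 3 of 16 alternative settings, with adjusted p of 0.0292 to 0.0468. Compared directly in 4OHT, Ik1ER cells differed from MigR1 cells by -0.75 ± 0.11 (standard error; limma adjusted p = 0.00799), a level 1.68-fold lower. This call used the same Ik1ER arrays as the one against ethanol, and it was lost when either MigR1 4OHT array was left out (limma adjusted p = 0.0652 without replicate 1 and 0.0599 without replicate 2). In ethanol the lines differed by 0.02 (95% interval -0.23 to 0.27; limma adjusted p = 0.994).

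The other 3 Bcl2l2 probe sets were dimmer, and 2 of them had means below the highest Bacillus mean. Probe set 1430453_a_at read 5.65 and 5.21 in Ik1ER cells with 4OHT, and 5.71 and 5.76 in Ik1ER cells with ethanol. Probe set 1451029_at read 4.21 and 4.41 in Ik1ER cells with 4OHT, and 4.63 and 4.72 in Ik1ER cells with ethanol. Probe set 1430454_x_at read 5.08 and 4.85 in Ik1ER cells with 4OHT, and 5.11 and 5.10 in Ik1ER cells with ethanol. In all 3 the 4OHT arrays lay below the ethanol arrays, by log2 differences of -0.31, -0.37 and -0.14, but none was called (limma adjusted p = 0.391, 0.211 and 0.650 over 45037 probe sets). On that scale 1423572_at, which stands for the gene, had an adjusted p of 0.00888. Non-overlapping groups with 4OHT lower were seen for 4 of 4 Bcl2l2 probe sets and for 19.6% of all probe sets. In MigR1 cells all 4 also lay below 0 with 4OHT, by -0.02 to -0.14, and the groups did not overlap for 2 of them. These probe sets read the same RNA and are not replicates. Averaged over all 4, the gene's log2 difference was -0.42, against -0.88 for its brightest probe set alone, and the gene remained called.

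**Figure D2:**
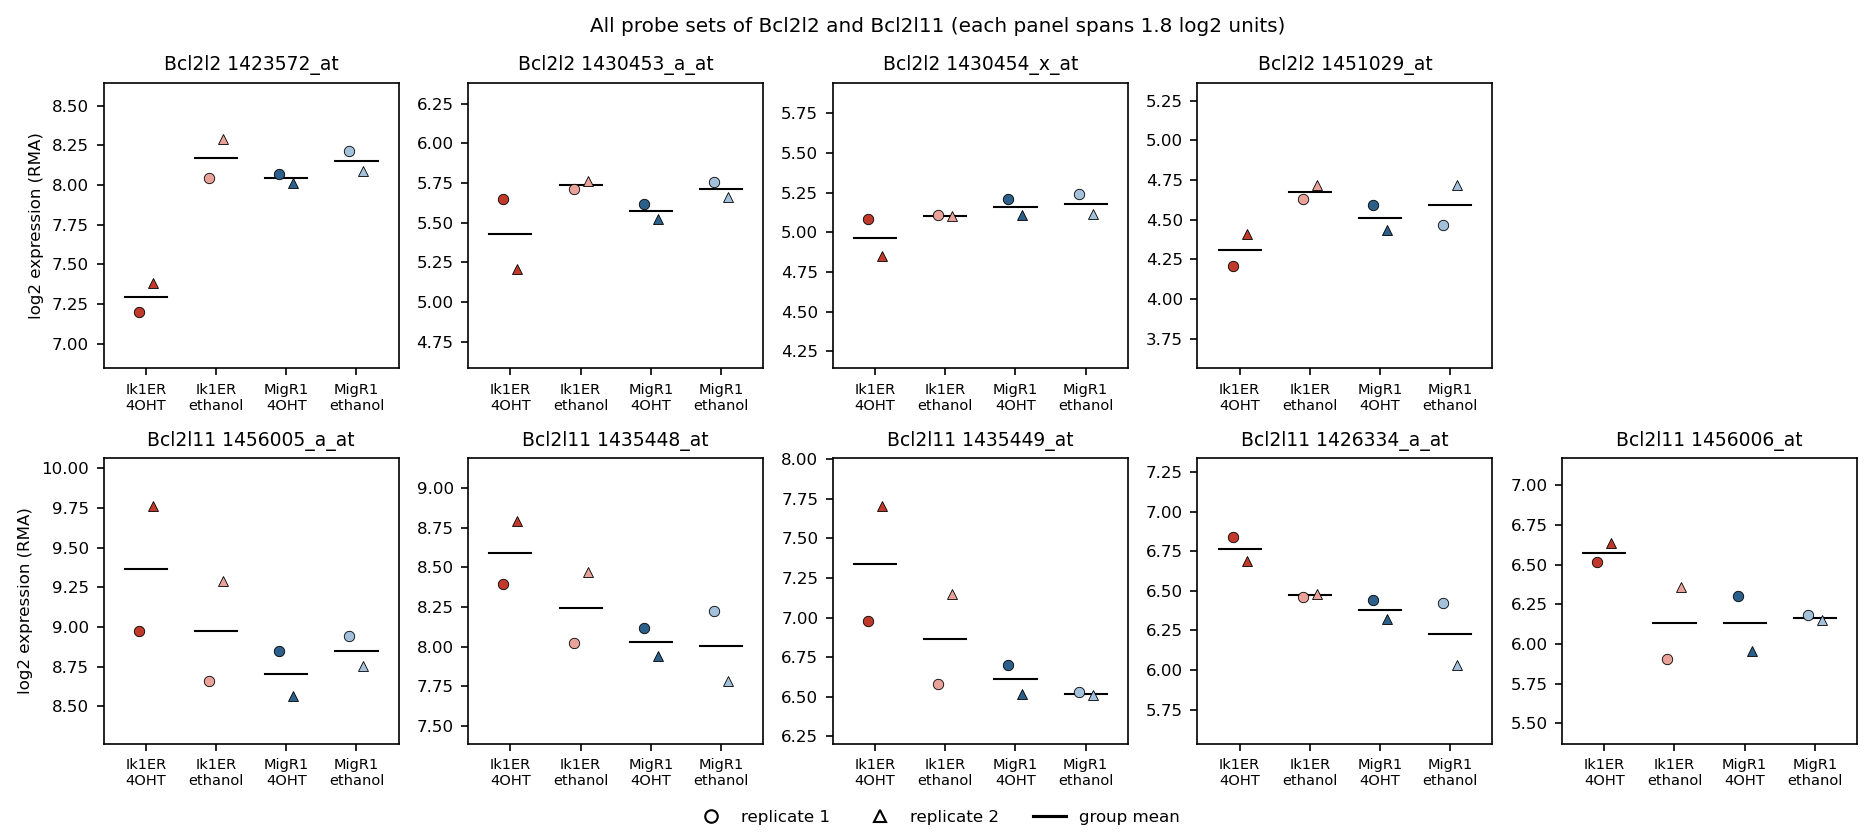
Log2 expression of the 4 Bcl2l2 and 5 Bcl2l11 probe sets on each array, 1 panel per probe set, with groups, symbols and bars as in the plot of the 9 members and an equal vertical span in every panel. The 2 Ik1ER 4OHT arrays lie below both Ik1ER ethanol arrays in all 4 Bcl2l2 panels, most widely for 1423572_at, and above both MigR1 4OHT arrays in all 5 Bcl2l11 panels.

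The genes whose levels followed Bcl2l2 most closely over the 8 arrays, among 10524 candidates, were Ndrg1 (Pearson's r = 0.996), Lpcat1 (0.992) and Tmem132a (0.992). All candidates share the same arrays, and the Ik1ER 4OHT arrays are low for each of these genes. Over the 6 arrays of the other groups the same correlations were 0.961, 0.924 and 0.841. These 6 were among the 8 arrays by which the genes were picked, so the values are not an independent check. Ndrg1, a stress-responsive gene, averaged 10.18 ± 0.25 in Ik1ER cells with 4OHT and 11.25 ± 0.20 in Ik1ER cells with ethanol (SD, n = 2 each), a log2 difference of -1.06 (limma adjusted p = 0.00682). Tmem132a, which encodes a transmembrane protein, fell by 0.84 on the log2 scale (limma adjusted p = 0.00358). The difference of Lpcat1, a lysophospholipid acyltransferase, was -0.26 and was not called (limma adjusted p = 0.0858).

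Of the other survival genes, Mcl1 and Bcl2l1 had higher mean values and Bcl2 a lower one in Ik1ER cells with 4OHT, and none of these differences was called. Mcl1, which encodes a short-lived survival protein, read 11.85 and 11.81 in Ik1ER cells with 4OHT and 11.68 and 11.57 in Ik1ER cells with ethanol. Its values in MigR1 cells were 11.57 and 11.58 with 4OHT, and 11.55 and 11.51 with ethanol. The 2 Ik1ER 4OHT arrays were the highest of the 8. The log2 difference was 0.21 (95% interval 0.04 to 0.37; limma adjusted p = 0.174) for 4OHT in Ik1ER cells and 0.25 (limma adjusted p = 0.0988) for Ik1ER against MigR1 cells in 4OHT. Both passed with trend and robust settings in limma (adjusted p = 0.0303 and 0.0112). All 6 Mcl1 probe sets pointed the same way in Ik1ER cells, with log2 differences of 0.10 to 0.22, and for 5 of 6 the 4OHT arrays lay wholly above the ethanol arrays, as for 19.2% of all probe sets. In MigR1 cells with 4OHT all 6 also lay above 0, by up to 0.13. Between the lines in ethanol all 6 were already higher in Ik1ER cells, by 0.07 to 0.21. For the gene, the 4OHT effects of the lines differed by 0.16 (limma adjusted p = 0.659). As with Bcl2l2, probe sets of the same gene are not replicates.

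Bcl2l1, which encodes BCL-XL and its death-promoting short form BCL-XS, read 8.17 and 8.30 in Ik1ER cells with 4OHT and 8.04 and 7.94 in Ik1ER cells with ethanol. In MigR1 cells it read 8.03 and 8.09 with 4OHT, and 7.88 and 8.01 with ethanol. The 4OHT arrays lay above the ethanol arrays in both lines. The log2 difference was 0.24 (95% interval 0.04 to 0.44; limma adjusted p = 0.183) in Ik1ER cells and 0.12 (95% interval -0.08 to 0.32) in MigR1 cells. These values were not split by splice form, and 3 of 4 Bcl2l1 probe sets lay above 0 in Ik1ER cells and also 3 of 4 in MigR1 cells. Probe set 1426191_a_at differed by 0.19 in Ik1ER cells and by 0.32 in MigR1 cells.

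Bcl2, the founding survival gene of the family, read 7.40 and 7.70 in Ik1ER cells with 4OHT, and 7.88 and 8.24 in Ik1ER cells with ethanol. In MigR1 cells it read 8.04 and 7.71 with 4OHT, and 8.13 and 7.69 with ethanol. The Ik1ER groups did not overlap, but the SD over the 2 arrays of a group was 0.22 to 0.31. The log2 difference in Ik1ER cells was -0.51 (95% interval -0.96 to -0.06; limma adjusted p = 0.212), and 4 of 5 Bcl2 probe sets lay below 0, as did 4 of 5 in MigR1 cells. The dimmer ones differed less in Ik1ER cells, by -0.17 (1422938_at), -0.16 (1437122_at), -0.03 (1443837_x_at) and 0.09 (1440770_at). The means of 1443837_x_at and 1440770_at lay below the highest Bacillus mean. Over 17 alternative settings the gene's difference in Ik1ER cells ran from -0.69 to -0.16.

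The 5 measured death genes all had higher mean values in Ik1ER cells with 4OHT than with ethanol, by 0.05 to 0.39 on the log2 scale, with a median of 0.20, and none was called (lowest limma adjusted p = 0.118). The groups did not overlap for 2 of the 5, Bbc3 and Bid, a share near the 42.7% of all genes. Over all genes, 8880 of 18193 lay above 0. The difference of 0.05 was that of Pmaip1, whose mean lay below the Bacillus median. Without the Ik1ER 4OHT replicate 2 array alone, Bak1 was at -0.34 and Bcl2l11 at -0.0041.

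Bcl2l11, which encodes the BH3-only protein BIM, had the largest difference among the death genes and also a wide spread. It read 8.97 and 9.76 in Ik1ER cells with 4OHT, and 8.66 and 9.29 in Ik1ER cells with ethanol. In MigR1 cells it read 8.85 and 8.56 with 4OHT, and 8.94 and 8.75 with ethanol. The 2 highest arrays were the replicate 2 arrays of the Ik1ER line, those with the high transferrin receptor difference, whose part in this result was not tested. The log2 difference for 4OHT in Ik1ER cells was 0.39 (95% interval -0.25 to 1.03; limma adjusted p = 0.550). It was 0.31 (limma adjusted p = 0.459) without both replicate 2 arrays, and -0.0041 without the Ik1ER 4OHT replicate 2 array alone.

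All 5 Bcl2l11 probe sets lay above 0 for 4OHT in Ik1ER cells, with log2 differences of 0.29 to 0.48, and both 4OHT arrays lay above both ethanol arrays for 2 of 5, against 19.2% of all probe sets. In MigR1 cells 3 of 5 lay above 0 and 2 below, by -0.14 to 0.15. Probe set 1456006_at read 6.52 and 6.63 in Ik1ER cells with 4OHT, and 5.91 and 6.36 in Ik1ER cells with ethanol. Probe set 1426334_a_at read 6.84 and 6.69 in Ik1ER cells with 4OHT, and 6.46 and 6.48 in Ik1ER cells with ethanol. In both, the Ik1ER 4OHT arrays lay above the Ik1ER ethanol arrays. Between the lines in 4OHT, both Ik1ER arrays lay above both MigR1 arrays for 5 of 5 probe sets, by 0.38 to 0.73, as for 18.8% of all probe sets. None of the 5 was called (limma adjusted p = 0.249 to 0.369). For the gene that difference was 0.66 (95% interval 0.02 to 1.30, limma adjusted p = 0.262). Between the lines in ethanol, 4 of 5 probe sets already lay above 0, with differences of -0.03 to 0.34. The 4OHT effects of the lines differed by 0.54 for the gene (limma adjusted p = 0.707). Here too the probe sets read the same RNA and are not replicates.

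Bbc3, which encodes the BH3-only protein PUMA, read 7.58 and 7.66 in Ik1ER cells with 4OHT, and 7.38 and 7.32 in Ik1ER cells with ethanol. In MigR1 cells it read 7.26 and 7.42 with 4OHT, and 7.43 and 7.40 with ethanol. Both Ik1ER 4OHT arrays lay above all 6 others. The log2 difference was 0.27 (95% interval 0.08 to 0.45; limma adjusted p = 0.118) for 4OHT in Ik1ER cells, and -0.07 in MigR1 cells. These effects differed by 0.34 (limma adjusted p = 0.279).

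Bid, whose protein links death receptors to mitochondria once caspase-8 has cut it, read 10.02 and 10.04 in Ik1ER cells with 4OHT, and 9.78 and 9.88 in Ik1ER cells with ethanol. In MigR1 cells it read 9.90 and 9.79 with 4OHT, and 9.91 and 9.77 with ethanol. The Ik1ER 4OHT arrays were again the highest of the 8. The log2 difference in Ik1ER cells was 0.20 (95% interval 0.01 to 0.39; limma adjusted p = 0.258), and the other 2 Bid probe sets gave differences of 0.13 and 0.07 with overlapping groups. The dimmer of these, 1447873_x_at, differed by 0.31 in MigR1 cells, where both 4OHT arrays lay above both ethanol arrays (limma adjusted p = 1.00).

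Bak1, which encodes the pore former BAK, read 7.62 and 8.53 in Ik1ER cells with 4OHT, the lowest and the highest of the 8 arrays. It read 7.83 and 8.08 in Ik1ER cells with ethanol, 7.85 and 7.84 in MigR1 cells with 4OHT, and 7.70 and 7.85 in MigR1 cells with ethanol. The log2 difference for 4OHT in Ik1ER cells was 0.12 (95% interval -0.46 to 0.70; limma adjusted p = 0.882), and it was -0.21 without both replicate 2 arrays of that line. The other Bak1 probe set lay below the highest Bacillus mean and differed by -0.11 for 4OHT in Ik1ER cells and by 0.17 in MigR1 cells. Pmaip1, which encodes the BH3-only protein NOXA, had a mean of 3.10 over the 8 arrays, below the Bacillus median, so that no level above background was seen in any group.

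**Figure D3:**
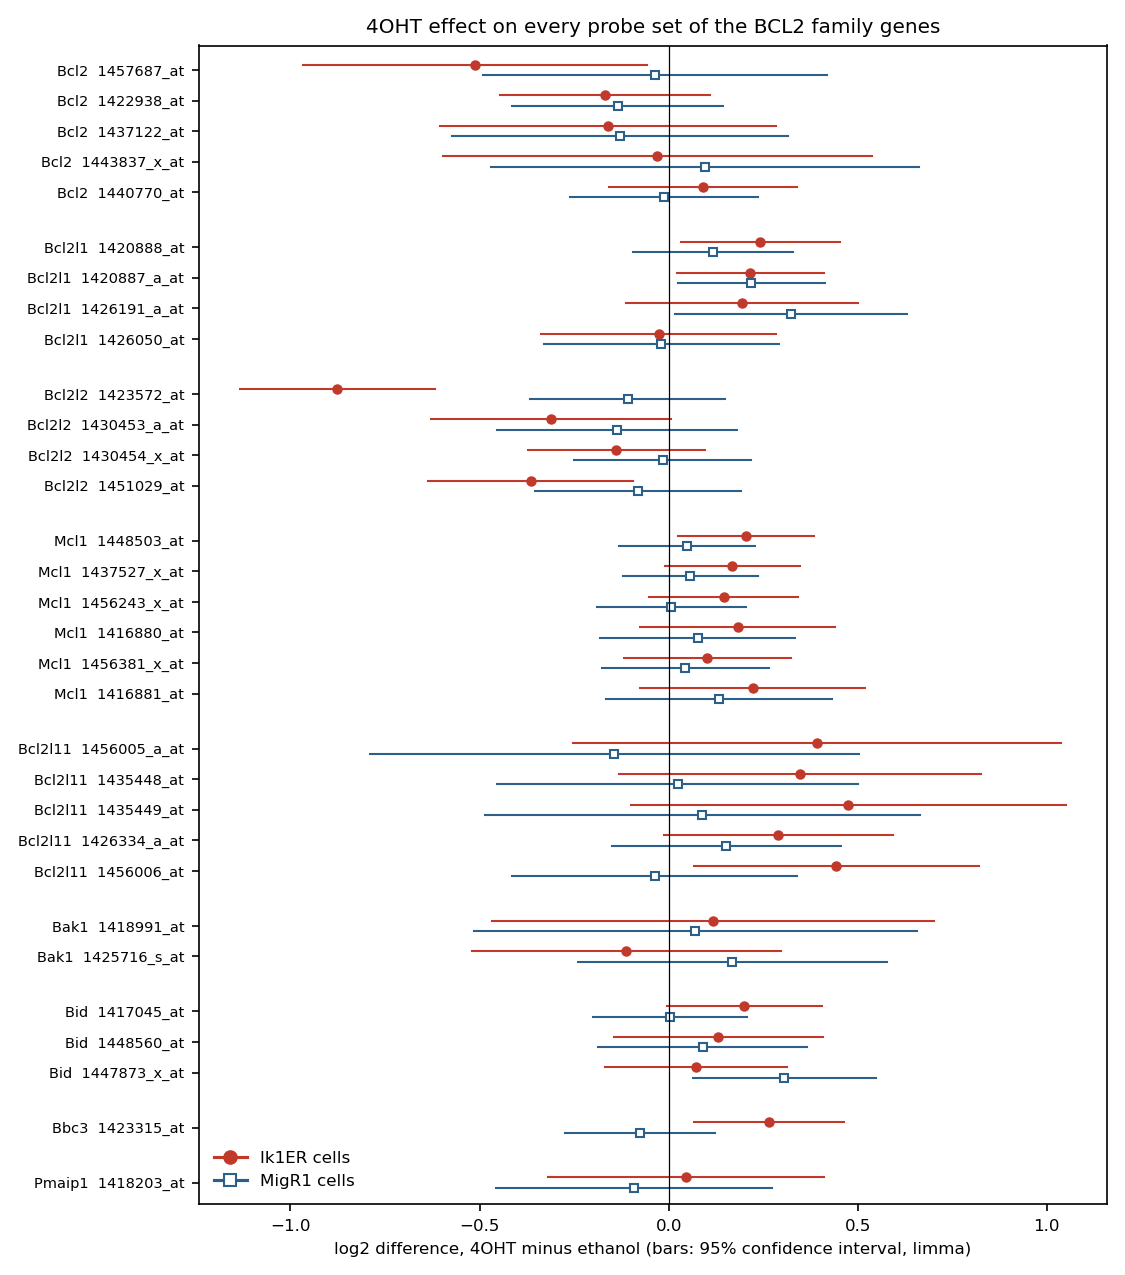
Log2 difference between 4OHT and ethanol for each of the 31 probe sets of the 9 genes, with Ik1ER cells as filled red circles and MigR1 cells as open blue squares; horizontal bars are 95% intervals from limma. Of the 31, 21 lie above 0 and 10 below in Ik1ER cells, and the Bcl2l2 probe set 1423572_at at -0.88 is the one that was called.

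Counted by probe set, 1 of 31 was called for 4OHT in Ik1ER cells, against 2.50% of all 45037 probe sets. In MigR1 cells 4OHT changed 0 of 9 members by limma's adjusted p, and 0% of all genes. At an unadjusted p under 0.05 it was 0 of 9 members and 2.12% of genes, with 386 genes in all. The members' log2 differences in MigR1 cells ran from -0.14 (Bcl2l11) to 0.12 (Bcl2l1) with a median of -0.04. Groups did not overlap for 3 of 9 members, Bcl2l1, Mcl1 and Bcl2l2, and for 29.7% of all genes.

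The difference between the 4OHT effects of the lines was called for 0 of 9 members and 1.26% of all genes in limma. Unadjusted p was under 0.05 for 2 of 9 members, Bcl2l2 and Bbc3, and for 11.2% of genes. Before induction, Ik1ER and MigR1 cells in ethanol differed in 0 of 9 members and in 0% of all genes by limma's adjusted p. At an unadjusted p under 0.05 these were 0 members and 5.32% of genes (968). The members' differences there had a median of 0.05, and groups did not overlap for 2 of 9 members, Mcl1 and Bbc3, and 37.6% of genes.

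In 4OHT, Ik1ER cells differed from MigR1 cells in 1 of 9 members, Bcl2l2, which was lower, against 5.08% of all genes called (2.91% higher and 2.17% lower). Unadjusted p was under 0.05 for 4 of 9 members, Bcl2l2, Mcl1, Bbc3 and Bcl2l11, and for 17.8% of genes. Groups did not overlap for 7 of 9 members, 5 above and 2 below, and for 44.8% of all genes. Bbc3 differed by 0.28 (limma adjusted p = 0.103), Bid by 0.18 (0.299), Bcl2l1 by 0.17 (0.364) and Bcl2 by -0.32 (0.452). By probe set 1 of 31 was called, against 2.13% of all probe sets. Of the 4 Bcl2l2 probe sets 3 lay wholly lower in Ik1ER cells, as did 21.2% of all probe sets.

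The rest of the death machinery was read from 5 lists that held 54 genes, of which 45 were measured. For 4OHT in Ik1ER cells 1 of the 45 was called higher and 0 lower, against 2.80% and 2.53% of all genes, with a median log2 difference of 0.01. Without adjustment 11 of 45 had p under 0.05, against 17.8% of all genes. Fas, the death receptor on the cell surface, was the gene called. It read 5.28 and 5.07 in Ik1ER cells with 4OHT, 4.38 and 4.60 in Ik1ER cells with ethanol, 4.62 and 4.59 in MigR1 cells with 4OHT, and 4.52 and 4.48 in MigR1 cells with ethanol. Both Ik1ER 4OHT arrays lay above all 6 others, while all 4 group means lay below the highest Bacillus mean, the highest being 5.17, so that the size of the change is given on the log2 scale only.

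The log2 difference of Fas was 0.68 ± 0.10 in Ik1ER cells (standard error; limma adjusted p = 0.00873), and 0.11 in MigR1 cells. These effects differed by 0.57, which did not pass (limma adjusted p = 0.125). The call was lost without the Ik1ER ethanol replicate 1 array (limma adjusted p = 0.0538), and without both replicate 2 arrays of the line the difference was 0.90 (limma adjusted p = 0.0190). Against MigR1 cells in 4OHT, Fas was higher by 0.57 (limma adjusted p = 0.0198), a call lost without any of 3 single arrays, the 2 of MigR1 with 4OHT and replicate 1 of Ik1ER with 4OHT (highest adjusted p 0.135).

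Among the 7 of 8 death receptor genes measured, Tradd and Fadd, adaptors that carry receptor signals, differed by 0.20 and 0.17 in Ik1ER cells and were not called (limma adjusted p = 0.154 and 0.506). The 6 inhibitors of apoptosis genes held 0 called for 4OHT in Ik1ER cells and had a median difference of 0.19. Birc3, which encodes the ubiquitin ligase cIAP2, differed by 0.37 there (limma adjusted p = 0.106). It was called for Ik1ER against MigR1 cells in 4OHT, with a log2 difference of 0.47 (limma adjusted p = 0.0469), and this call was lost in 10 of 17 alternative settings, among them that without both replicate 2 arrays of the Ik1ER line (0.43, limma adjusted p = 0.141). Birc3 read 8.19 and 8.28 in Ik1ER cells with 4OHT, 7.76 and 7.98 in Ik1ER cells with ethanol, 7.65 and 7.89 in MigR1 cells with 4OHT, and 7.77 and 7.82 in MigR1 cells with ethanol. Naip5 differed by 0.45 and Xiap, the direct caspase inhibitor, by -0.23 in Ik1ER cells (limma adjusted p = 0.210 and 0.383).

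Other BCL2 relatives, 11 of 16 measured, held 0 called and a median of 0.04. Those with the smallest p were Hrk and Bad, both BH3-only, at -0.20 and 0.22, and Bcl2l14 at -0.29 (limma adjusted p = 0.207, 0.223 and 0.269). Caspases, apoptosome and mitochondrial factors, 13 of 15 measured, held 0 called and a median of -0.08. Endog, a mitochondrial nuclease, differed by -0.26, Casp6, an effector caspase, by -0.24, and Vdac1, an outer membrane channel, by -0.20 (limma adjusted p = 0.156, 0.175 and 0.246). Genes for the turnover and upstream control of BCL2 proteins, 8 of 9 measured, held 0 called and a median of -0.03. The kinase Mapk8 differed by 0.17, and the ubiquitin ligases Fbxw7 and Trim17, which act on MCL1, by -0.13 and 0.10 (limma adjusted p = 0.506, 0.606 and 0.643). The mean of Trim17 lay below the highest Bacillus mean.

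**Figure D4:**
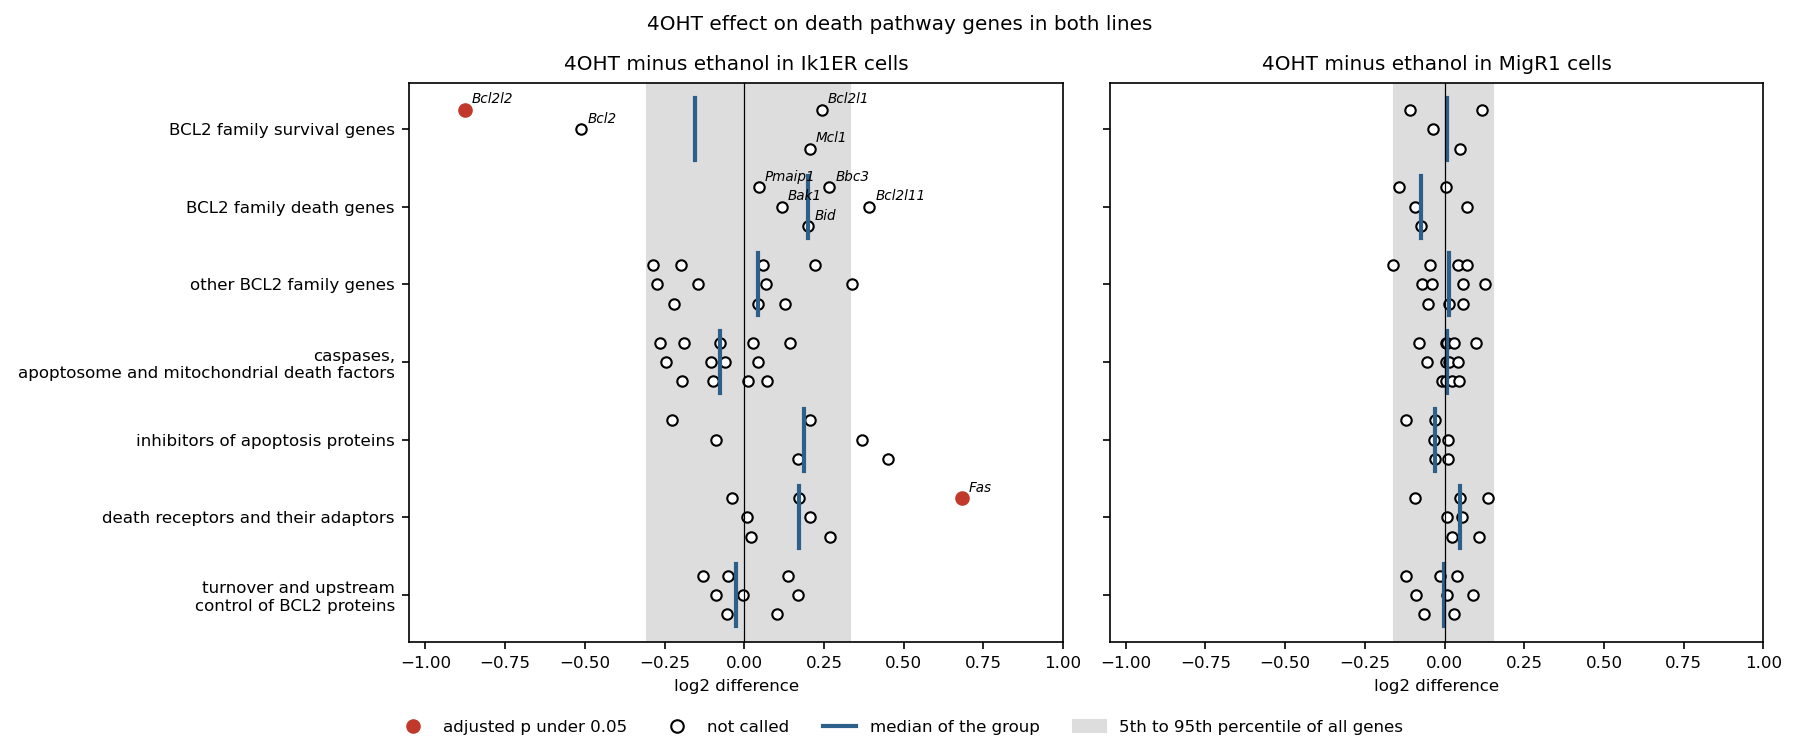
Log2 difference between 4OHT and ethanol for the 9 members and the 45 measured genes of the 5 death pathway lists, in Ik1ER and in MigR1 cells. Each point is a gene, red points passed the limma test, and the grey band spans the 5th to 95th percentile of all genes, -0.31 to 0.33 in Ik1ER cells and -0.16 to 0.15 in MigR1 cells. Bcl2l2 at -0.88 and Fas at 0.68 are the red points in Ik1ER cells, and MigR1 cells have none.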

How the data were processed

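Biotin-labelled RNA of 8 samples was read on Affymetrix arrays, and the table deposited by the authors holds log2 values, made by RMA according to the submitters' processing notes. Its version and the probe set definitions were not given in the sources used here. Differences of dim genes are compressed in such values, and a shift of total RNA cannot be seen. Names came from the platform annotation: 34945 probe sets have 1 symbol, 932 several and 9160 none listed, and 64 are controls.

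A linear model with 1 mean per group was fitted by lmFit and moderated by eBayes in limma 3.58.1 (R 4.3.3), over all 8 arrays (4 residual degrees of freedom), with 5 contrasts, over 18193 genes and, separately, 45037 probe sets. Errors beside means are SD over 2 arrays. Values for the genes most like Bcl2l2 were sought among genes whose mean lay above the median probe set (5.40), without predicted genes.

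The members and lists were chosen with earlier results of these data known. The text names all members, every list gene called in a contrast, the 3 of smallest p for 4OHT in Ik1ER cells in each list, and the 3 genes most like a called member. The settings tried beside the main one were a block for the replicate number, a filter on dim genes, trend and robust settings, repeated quantile normalization, centring, the mean over probe sets, another rule for probe sets ending in x_at, only the arrays compared, and leaving out each array. Leaving out both replicate 2 arrays of the Ik1ER line was added after the data were seen.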

Additional observations from a re-analysis of the deposited data

How the results depend on the processing

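The fall of Bcl2l2 with 4OHT in Ik1ER cells was called in 17 of 17 alternatives, with log2 differences of -0.999 to -0.42 and limma adjusted p of 0.000868 to 0.0303. Its lower level against MigR1 cells in 4OHT was called in 15 of 17 (adjusted p of 0.00226 to 0.0652). Members called for 4OHT in Ik1ER cells numbered 2 with trend and robust settings, which added Mcl1. The difference between the lines' 4OHT effects had 1 member called, Bcl2l2, with the filter on dim genes, with trend and robust settings and with repeated quantile normalization. Ik1ER against MigR1 cells in 4OHT had 2 with the dim filter and with trend and robust settings, Bcl2l2 and Mcl1, and 0 to 2 when single arrays were left out, Bak1 being added without Ik1ER 4OHT replicate 1 (0.69, adjusted p = 0.0341).

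Over all genes, 971 were called for 4OHT in Ik1ER cells, against 399 with only the arrays compared, 389 without both replicate 2 arrays of the Ik1ER line, and 441 to 832 with single arrays left out. For the difference between effects 230 were called, against 444 with trend and robust settings, 90 without both replicate 2 arrays and 52 to 273 with single arrays left out. For Ik1ER against MigR1 cells in 4OHT 925 were called, against 416 with only the arrays compared, 592 without both replicate 2 arrays and 237 to 805 with single arrays left out. Counts of 0 became 1 for 4OHT in MigR1 cells under the other rule for x_at probe sets, and 1 between the lines in ethanol with the mean over probe sets. Fewer arrays leave fewer degrees of freedom. Where an array left out leaves a group with 1, that array is assumed to vary like the other groups. The groups did not spread alike. Over all probe sets, the SD of the difference between replicates was 0.250 in Ik1ER cells with 4OHT and 0.188 with ethanol. In MigR1 cells it was 0.167 with 4OHT and 0.170 with ethanol. Adjusted p from fits without Ik1ER arrays may thus be too small.

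With the replicate number as a block, 1160, 0, 341, 0 and 1073 genes were called in the 5 contrasts, and 1, 0, 0, 0 and 1 members, with Bcl2l2 at an adjusted p of 0.00528 for 4OHT in Ik1ER cells. The arrays share only a number in the labels. The log2 differences between replicates correlated at 0.43 between the Ik1ER groups, 0.22 between the MigR1 groups and -0.02 to 0.23 across lines.

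Of 800 values of single genes under the alternatives, 46 changed sign, none of a called result. Without both replicate 2 arrays of the Ik1ER line, Bak1 was -0.21 for 4OHT in Ik1ER cells, -0.28 for the difference between effects and -0.23 between lines in 4OHT. Under that setting the lines differed in ethanol by -0.030 (Bcl2), -0.10 (Bcl2l2) and -0.19 (Bcl2l11). With the mean over probe sets, Bcl2l11 was 0.017 for 4OHT in MigR1 cells, Bcl2l1 -0.0036 and Bak1 -0.12 for the difference between effects, Bak1 -0.048 between lines in 4OHT and Bid 0.090 between lines in ethanol. Repeated quantile normalization gave -0.0067 for Bid with 4OHT in MigR1 cells and -0.0093 for Bcl2l2 between lines in ethanol, and centring gave 0.034 for Bid there.

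With single arrays left out, results that crossed 0 had these ranges. For 4OHT in Ik1ER cells they were -0.0041 to 0.79 (Bcl2l11), -0.34 to 0.57 (Bak1) and -0.14 to 0.23 (Pmaip1). For 4OHT in MigR1 cells they were -0.26 to 0.19 (Bcl2), -0.0069 to 0.15 (Bak1), -0.067 to 0.073 (Bid), -0.15 to 0.0039 (Bbc3) and -0.21 to 0.022 (Pmaip1). For the difference between effects they were -0.41 to 0.50 (Bak1) and -0.044 to 0.32 (Pmaip1). Between lines in ethanol they were -0.069 to 0.37 (Bcl2), -0.022 to 0.11 (Bcl2l1), -0.10 to 0.14 (Bcl2l2), -0.19 to 0.44 (Bcl2l11), -0.082 to 0.057 (Bid) and -0.24 to 0.062 (Pmaip1). Between lines in 4OHT they were -0.23 to 0.69 (Bak1) and -0.13 to 0.23 (Pmaip1). The cause of these changes was not tested. Fas was called for 4OHT in Ik1ER cells in 14 of 16 alternatives, the others being without Ik1ER ethanol replicate 1 and with only the arrays compared (adjusted p = 0.0599), and for Ik1ER against MigR1 cells in 4OHT in 12 of 16. Signal over background limits Pmaip1, Fas, Trim17 and 7 of the 31 member probe sets, which lay at or below the highest Bacillus mean.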
